A study of Homo sapiens with 4 samples.

Results

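In the human liver cancer cell line PLC8024, 54 listed genes for histone and DNA modifying enzymes were examined by RNA sequencing in 2 libraries labelled drug and 2 labelled control. Members were taken by matching the listed symbol to the symbol column of a single table of 26603 genes, which held 53 of them; SIRT2 was not analysed here. The drug group is PLC8024 cells given a drug that the labels do not name, with no dose or duration, and the control group is PLC8024 cells labelled control. Both groups are the same cell line with no genotype change stated, and nothing in the labels states that the cultures were separate. All p-values therefore measure the spread between these libraries alone, which may be technical. Of the 53 genes, 29 are writers, 1 is a reader and 23 are erasers.

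Chromatin is marked by enzymes that add chemical groups to histone tails or to cytosine (writers) and by enzymes that take them off (erasers), and the marks are bound by reader proteins that recruit further complexes. Writers draw methyl groups from S-adenosylmethionine and acetyl groups from acetyl-CoA, while demethylases of the Jumonji and TET classes use 2-oxoglutarate and sirtuins use NAD. In liver cancer, genes for chromatin regulators are among the recurrently mutated ones, and polycomb and DNA methyltransferase genes are known for raised expression. Transcript levels do not measure enzyme activity or the marks themselves.

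Recovered gene reads totalled 40279560 and 38685856 in drug libraries 1 and 2, and 28526098 and 38611635 in control libraries 1 and 2. Levels are given as FPKM, fragments scaled for gene length and library total, in the order of library 1 and library 2 of each group. Hepatocyte markers were mixed: AFP, APOB and TTR were under 1 FPKM, while ALB, APOA1 and FGB were lower by limma, HNF4A and FOXA2 were higher, and SERPINA1 did not pass. The summed FPKM of all 10 was 365.8 and 345.3 with drug, against 625.5 and 618.4 in control. FGB, a fibrinogen chain, carried that difference, and the other 9 summed to 70.6 and 71.2 FPKM with drug, against 69.8 and 69.1 FPKM in control. Epithelial markers also went both ways: KRT8 and KRT18 were higher, CDH1 was lower at 7.72 and 7.87 FPKM with drug, against 12.4 and 12.4 FPKM in control, and EPCAM was under 1 FPKM. The sum of these 4, mostly keratin, was 399.8 and 421.2 FPKM with drug, against 299.9 and 313.3 FPKM in control. Of 6 fibroblast and 2 leukocyte markers in the table, 0 reached 1 FPKM. Among endothelial markers, PECAM1 averaged 2.16 FPKM with drug and 4.39 FPKM in control. CDH5 and VWF were under 0.05 FPKM in every library, and KDR was not analysed here. Cholangiocyte markers went both ways: KRT7 averaged 0.165 FPKM with drug and 0.0446 FPKM in control, and KRT19 averaged 0.688 FPKM with drug and 1.195 FPKM in control. The part of these marker genes in the results below was not tested. In bulk RNA, fewer cells of a type and less RNA per cell cannot be told apart.

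By limma, 4 chromatin enzyme genes were called with drug, a smaller share than of all genes tested, each with a modest change. SIRT1, an NAD-dependent deacetylase, HDAC7, a class IIa deacetylase, and KDM2A, a demethylase of histone H3 lysine 36, were higher, and DNMT3B, a de novo DNA methyltransferase, was lower. Of 51 members that averaged 1 FPKM or more in either group, 3 rose (5.88%) and 1 fell (1.96%) by limma's test on log2(FPKM + 1) at an adjusted p under 0.05, and 47 did not pass. Over all 11227 genes tested, 7.78% were higher and 6.02% were lower, 13.8% in all, so the share of members called, 7.84%, lay under that of all genes. Higher genes made up 56.4% of all calls with FPKM as deposited, 39.4% with TMM scaling of FPKM and 43.3% by edgeR on recovered reads. At an unadjusted p under 0.05 there were 16 members, against a background of 33.1%. With the replicate number as a block, KDM2A and HDAC7 did not pass (limma adjusted p 0.0542 and 0.0635). With TMM scaling the same 4 members passed, 3 higher and 1 lower, against 4.85% and 7.46% of all genes. All 4 also passed edgeR, and all 4 lost the call when any single library was left out (lowest adjusted p 0.0571) or with no filter on low values.

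Most fold changes were small and positive, as they were for all genes. The median log2 fold change of the 51 members was 0.0757, against 0.0364 for all genes tested, and the median size regardless of sign was 0.0984, against 0.0977. Positive values were found for 38 of 51 members (74.5%), against 61.0% of all genes. With TMM scaling 32 members (62.7%) were positive, against 50.4% of all genes. The drug libraries both lay above the controls for 26 members (51.0%, background 40.3%) and both lay below for 13 (25.5%, background 23.3%), and the groups overlapped for 12. Over all genes, 63.5% had groups that did not overlap. The 95% interval of every member tested lay within a 1.5-fold change on the log2(FPKM + 1) scale, which was also true of 91.0% of all genes. With a pseudocount of 0.01 in place of 1, which shrinks low values less, 48 of the 51 intervals lay within it.

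**Figure D1:**
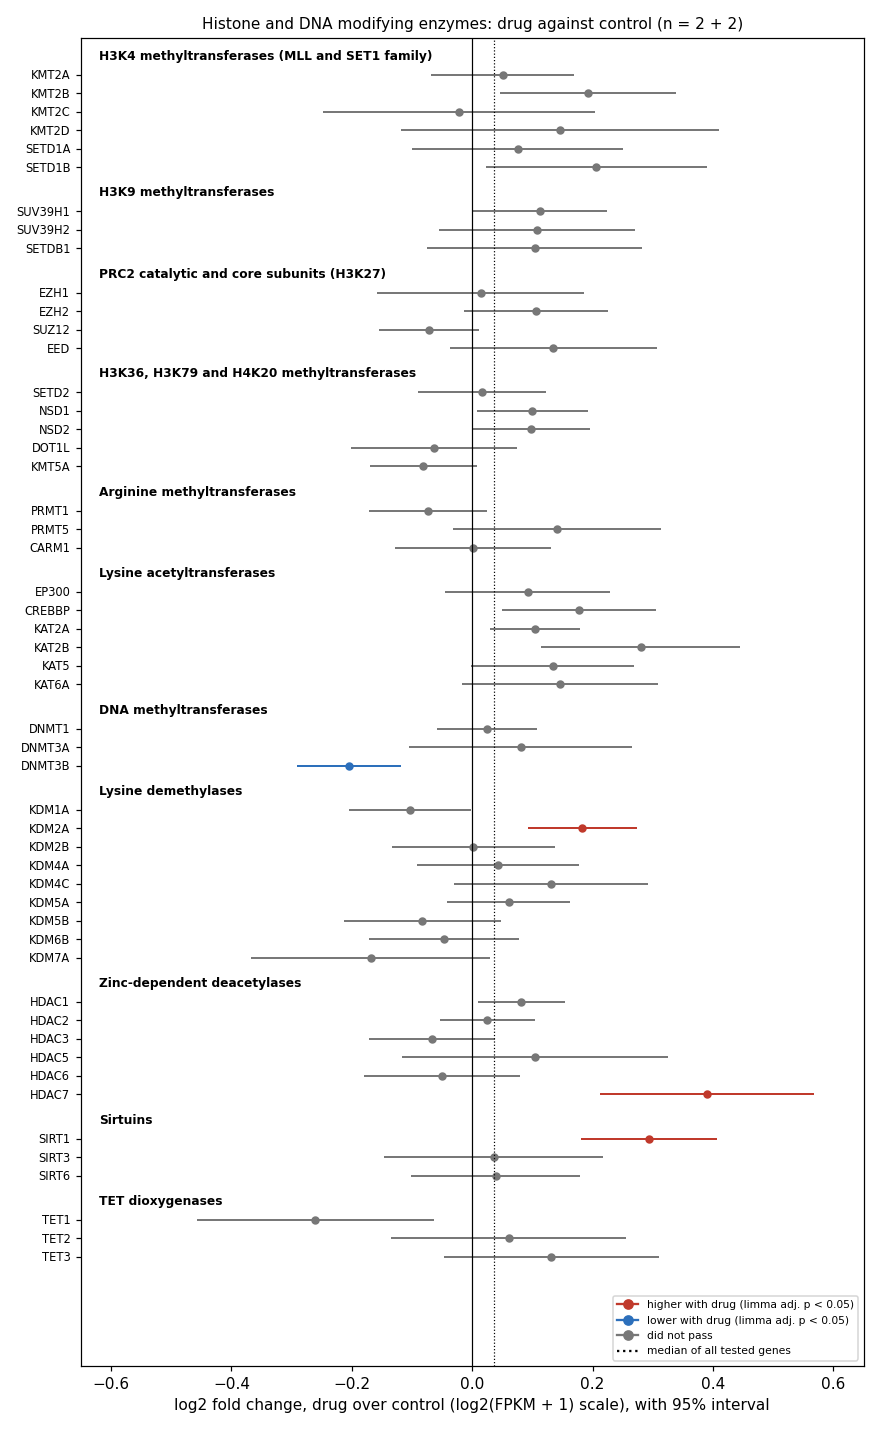
Log2 fold change of each tested member, drug over control, on the log2(FPKM + 1) scale (horizontal axis), grouped by enzyme family down the page. Points are limma estimates from 2 drug and 2 control libraries, lines are 95% intervals, and the dotted line is the median of all tested genes at 0.0364; HDAC7 at 0.39 lies farthest to the right and TET1 at -0.26 farthest to the left.

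**Figure D2:**
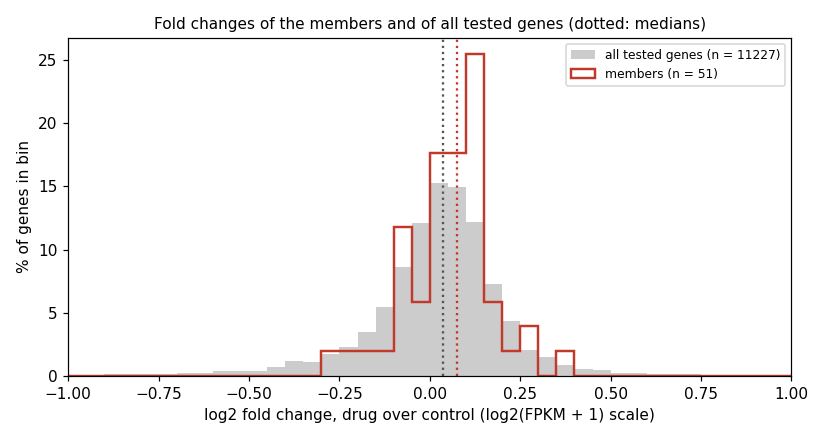
Share of genes (vertical axis, percent) by log2 fold change, drug over control (horizontal axis), for all 11227 tested genes in grey and the 51 tested members in red outline. Dotted lines mark the medians of 0.0757 for members and 0.0364 for all genes, and the axis ends at 1 in each direction, leaving genes beyond it undrawn.

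Levels of the members spanned a wide range that was shared by the groups. HDAC1, a class I deacetylase of the NuRD, Sin3 and CoREST complexes, was the most abundant, at 60.2 and 59.7 FPKM with drug, against 55.8 and 57.4 FPKM in control. PRMT1, the main asymmetric arginine methyltransferase, followed with 33.7 and 32.2 FPKM with drug, against 34.0 and 35.5 FPKM in control. After these came DNMT3B, KDM2A, SUZ12 and KAT2A, whose order by group mean was KDM2A, DNMT3B, KAT2A, SUZ12 with drug and DNMT3B, KDM2A, SUZ12, KAT2A in control. At the low end, HDAC4 had 0.693 and 0.662 FPKM with drug, against 0.665 and 0.583 FPKM in control, and HDAC8 had 0.736 and 0.855 FPKM with drug, against 0.775 and 0.811 FPKM in control; both were under the filter, were not tested and overlapped between groups. The median member stood at 5.41 FPKM with drug and 5.17 FPKM in control.

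**Figure D3:**
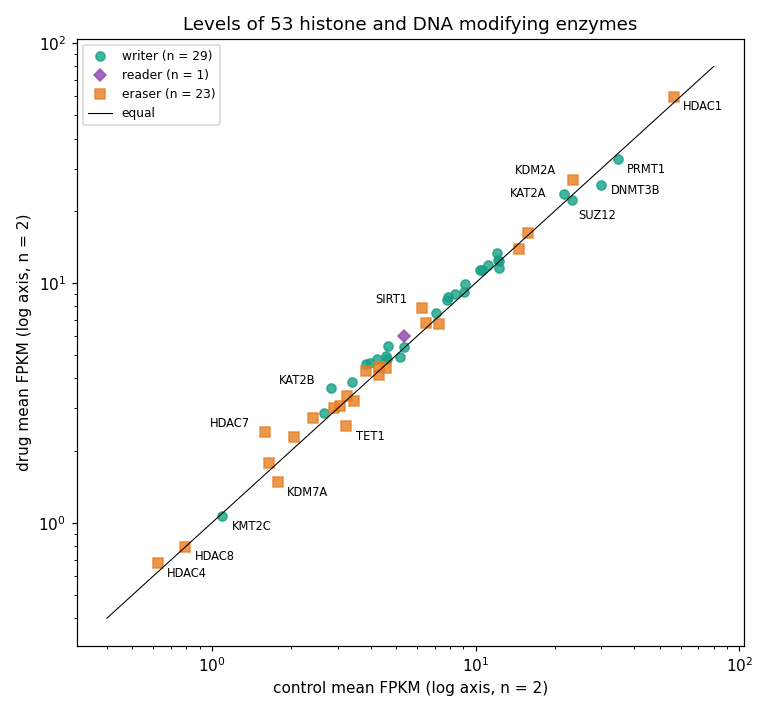
Mean FPKM of 53 members with drug (vertical axis, log scale) against control (horizontal axis, log scale), n = 2 libraries each, with writers, the reader and erasers marked by colour and shape. Points lie close to the line of equal levels, from HDAC4 at 0.678 FPKM with drug and 0.624 FPKM in control to HDAC1 at 59.9 FPKM with drug and 56.6 FPKM in control.

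Among the DNA methyltransferases, DNMT3B was lower with drug while DNMT1 and DNMT3A were not called. DNMT3B (ENSG00000088305), located on chr20:32762385-32809356 on the plus strand in hg38, had 25.2 and 26.3 FPKM with drug, against 29.8 and 29.8 FPKM in control. Both drug libraries lay below both controls, from 6968 and 7003 recovered reads with drug and 5849 and 7912 in control. The log2 fold change was -0.20 (SE 0.03), with a limma adjusted p of 0.0231. Left out in turn, drug 1, drug 2, control 1 and control 2 gave adjusted p values of 0.0892, 0.0584, 0.0998 and 0.0945, with log2 fold changes from -0.24 to -0.17. DNMT1, the maintenance enzyme that copies methylation onto new strands, had 12.5 and 12.4 FPKM with drug, against 12.2 and 12.2 FPKM in control, a difference of 0.02 in log2 that turned to -0.01 with TMM scaling. DNMT3A, the other de novo enzyme, had 2.85 and 2.90 FPKM with drug, against 2.86 and 2.49 FPKM in control, and its groups overlapped. DNMT3B made up 62.1% and 63.3% of the summed FPKM of the 3 genes with drug, against 66.5% and 66.9% in control. The sum itself was 40.5 and 41.6 FPKM with drug, against 44.8 and 44.5 FPKM in control. An exact two-sided permutation test of the sum gave p = 0.333, the smallest that 2 libraries against 2 allow.

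The TET dioxygenases oxidise methylated cytosine and so oppose these enzymes, and 0 of 3 were called by limma. At an unadjusted p under 0.05 there was 1, TET1, against 33.1% of all genes. TET1 was also called lower by edgeR and DESeq2 on recovered reads, against 11.0% and 9.06% of all genes. TET1 had 2.57 and 2.50 FPKM with drug, against 3.49 and 2.99 FPKM in control, with both drug libraries below both controls, a log2 fold change of -0.26 (SE 0.08) and a limma adjusted p of 0.0850. TET3, the most abundant of the 3, had 4.00 and 4.61 FPKM with drug, against 3.82 and 3.85 FPKM in control, and TET2 had 1.86 and 1.68 FPKM with drug, against 1.65 and 1.66 FPKM in control. For both, the drug libraries lay above the controls, as in 40.3% of all genes tested. TET1 accounted for 30.5% and 28.4% of the summed TET FPKM with drug, against 38.9% and 35.2% in control.

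The H3K4 methyltransferases, which mark promoters and enhancers, had 0 of 6 members called by limma. At an unadjusted p under 0.05 there were 2, against 33.1% of all genes. Both edgeR and DESeq2 called 1, against 19.4% and 16.3% of all genes. KMT2B, an MLL-family enzyme of active promoters, was that gene, with 5.21 and 5.74 FPKM with drug, against 4.61 and 4.71 FPKM in control and a limma adjusted p of 0.0847. SETD1B, one of the catalytic subunits of COMPASS complexes, had 4.25 and 4.92 FPKM with drug, against 3.85 and 3.81 FPKM in control (limma adjusted p 0.118). KMT2A, known for its fusions in leukaemia, had 4.74 and 4.92 FPKM with drug, against 4.59 and 4.66 FPKM in control. Drug libraries lay above both controls for these 3, as in 40.3% of all genes tested. KMT2C, an enhancer enzyme with partial copies elsewhere in the genome that could share its reads, had 1.043 and 1.09 FPKM with drug, against 1.103 and 1.092 FPKM in control, both below. KMT2D, its enhancer paralog, had 4.22 and 5.39 FPKM with drug, against 4.30 and 4.13 FPKM in control, and SETD1A, the other SET1 enzyme, had 7.05 and 7.94 FPKM with drug, against 6.78 and 7.34 FPKM in control; both overlapped.

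The H3K9 methyltransferases, which write the mark of silent heterochromatin, had 0 of 3 called by limma and 0 by edgeR and DESeq2. At an unadjusted p under 0.05 there was 1, against 33.1% of all genes. SUV39H1 had 9.62 and 10.2 FPKM with drug, against 9.03 and 9.17 FPKM in control, and its paralog SUV39H2 had 10.6 and 12.0 FPKM with drug, against 10.5 and 10.3 FPKM in control. The drug libraries lay above both controls for this pair, as in 40.3% of all genes tested. SETDB1, which silences retroelements with KAP1, had 4.65 and 5.30 FPKM with drug, against 4.42 and 4.69 FPKM in control, with overlap.

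The polycomb repressive complex that methylates H3K27 had 0 of 4 subunits called by limma, 0 at an unadjusted p under 0.05, and 0 by edgeR and DESeq2. EZH2, its main catalytic subunit in dividing cells, had 8.38 and 8.58 FPKM with drug, against 8.08 and 7.54 FPKM in control. EED, the only member listed as a reader, binds the trimethylated product and stimulates the enzyme; it had 6.35 and 5.62 FPKM with drug, against 5.52 and 5.20 FPKM in control. For both, drug lay above control, as in 40.3% of all genes tested. SUZ12, the scaffold subunit, lay the other way, with 21.8 and 22.4 FPKM with drug, against 23.6 and 23.0 FPKM in control, and a pseudogene copy could share its reads. EZH1, the paralog of EZH2, had 5.54 and 5.28 FPKM with drug, against 5.70 and 5.01 FPKM in control and overlapped. SUZ12 had the highest FPKM of the 4 in every library.

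Among the methyltransferases of H3K36, H3K79 and H4K20, 0 of 5 were called by limma and 0 by edgeR and DESeq2. At an unadjusted p under 0.05 there were 2, against 33.1% of all genes. NSD1, an H3K36 dimethylase, had 8.998 and 9.018 FPKM with drug, against 8.403 and 8.282 FPKM in control, and NSD2, its relative, had 11.1 and 11.6 FPKM with drug, against 10.6 and 10.4 FPKM in control. Drug lay above control for both, as in 40.3% of all genes tested. DOT1L, the H3K79 methyltransferase, had 4.69 and 5.12 FPKM with drug, against 5.17 and 5.17 FPKM in control, and KMT5A, the H4K20 monomethylase, had 11.7 and 11.4 FPKM with drug, against 12.2 and 12.3 FPKM in control. Drug lay below control for these, as in 23.3% of all genes tested. SETD2, the H3K36 trimethylase that travels with elongating polymerase, had 9.42 and 8.93 FPKM with drug, against 9.01 and 9.10 FPKM in control and overlapped.

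Of the arginine methyltransferases, 0 of 3 were called by limma, with 0 at an unadjusted p under 0.05 and 0 by edgeR and DESeq2. PRMT1, given above, lay below control, and PRMT5, the main symmetric arginine methyltransferase, lay above it with 13.1 and 13.6 FPKM with drug, against 11.2 and 12.9 FPKM in control. CARM1, a coactivator of nuclear receptors, had 11.8 and 12.8 FPKM with drug, against 12.0 and 12.6 FPKM in control, with overlapping groups and a log2 fold change of 0.0017.

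The lysine acetyltransferases, which open chromatin and act as coactivators, had positive fold changes in 6 of 6 members, also with TMM scaling. Over all genes tested, 61.0% were positive, and 50.4% with TMM scaling. By limma 0 of the 6 were called. At an unadjusted p under 0.05 there were 4, against 33.1% of all genes. Both edgeR and DESeq2 called 2 higher, against 8.37% and 7.26% of all genes. KAT2B, a SAGA-type acetyltransferase also named PCAF, had 3.45 and 3.84 FPKM with drug, against 2.86 and 2.79 FPKM in control, a log2 fold change of 0.28 (SE 0.06) and a limma adjusted p of 0.05005, just outside the threshold. CREBBP, the paralog of p300, had 4.52 and 4.77 FPKM with drug, against 4.01 and 3.97 FPKM in control (limma adjusted p 0.0764). Both were higher by edgeR. KAT2A, the more abundant SAGA enzyme, had 23.5 and 23.4 FPKM with drug, against 21.6 and 21.9 FPKM in control. KAT5, the catalytic subunit of the TIP60 complex, had 8.36 and 9.08 FPKM with drug, against 7.67 and 8.04 FPKM in control, and KAT6A, of the MYST class, had 3.65 and 4.08 FPKM with drug, against 3.37 and 3.42 FPKM in control. In these 5 genes both drug libraries lay above both controls, as they did in 40.3% of all genes tested. EP300, which encodes p300, had 11.6 and 12.2 FPKM with drug, against 11.6 and 10.7 FPKM in control, where drug library 1 and control library 1 were level. The summed FPKM of the 6 genes was 55.0 and 57.4 with drug, against 51.1 and 50.8 in control, and the exact two-sided permutation test gave its smallest possible p of 0.333.

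Among the lysine demethylases, KDM2A was higher with drug and the other 8 tested did not pass. KDM2A (ENSG00000173120) removes methyl groups from H3K36 and binds unmethylated CG dinucleotides through a CXXC zinc finger, which places it at CpG islands. It lies on chr11:67119269-67258087 on the plus strand in hg38 and had 26.2 and 27.5 FPKM with drug, against 23.4 and 23.6 FPKM in control. Both drug libraries lay above both controls, from 10938 and 11031 recovered reads with drug and 6930 and 9451 in control. The log2 fold change was 0.18 (SE 0.03), with a limma adjusted p of 0.0334. Left out in turn, drug 1, drug 2, control 1 and control 2 gave adjusted p values of 0.0670, 0.130, 0.129 and 0.111, with log2 fold changes from 0.15 to 0.22. A pseudogene on the opposite strand lies within its bounds, and the sources used here do not say whether counting used strand.

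The promoters of KDM2A and SIRT1 are shown because both genes were called higher and KDM2A itself binds unmethylated CG. Sequences are from RefSeq (GRCh38.p14), plus strand, 250 bases before to 50 after the listed start, with CG dinucleotides in capitals. The KDM2A window is chr11:67119013-67119312 and the SIRT1 window is chr10:67884406-67884705.
KDM2A promoter: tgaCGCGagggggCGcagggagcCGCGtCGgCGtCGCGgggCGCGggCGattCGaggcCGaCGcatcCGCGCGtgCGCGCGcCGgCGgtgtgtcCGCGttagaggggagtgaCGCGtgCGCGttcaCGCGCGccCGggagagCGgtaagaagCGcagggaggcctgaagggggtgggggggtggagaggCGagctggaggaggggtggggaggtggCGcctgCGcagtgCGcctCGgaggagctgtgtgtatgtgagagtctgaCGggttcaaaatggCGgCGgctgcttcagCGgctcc
SIRT1 promoter: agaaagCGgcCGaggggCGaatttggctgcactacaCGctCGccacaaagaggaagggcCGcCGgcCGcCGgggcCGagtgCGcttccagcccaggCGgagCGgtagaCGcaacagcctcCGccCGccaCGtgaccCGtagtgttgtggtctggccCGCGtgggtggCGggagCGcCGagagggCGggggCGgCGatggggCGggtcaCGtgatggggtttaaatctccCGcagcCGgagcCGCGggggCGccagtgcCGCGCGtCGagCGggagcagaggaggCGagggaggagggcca
These windows hold 44 CG for KDM2A and 39 for SIRT1, against a median of 14 over the 35116 promoters of the table and of 29 over the 49 members matched in it. The palindromic letters CACGTG occur 2 times in the SIRT1 window and 0 times in that of KDM2A, against 7.26% of all promoters holding at least 1. GGGCGG, searched on both strands, occurs 4 times in the SIRT1 window and 0 times in the KDM2A window, and 45% of all promoters hold it. A second listed KDM2A start, 120745 bases downstream of the annotated gene start, has 12 CG and 1 GGGCGG in its window. Among the 49 members, counted at the start nearest to the annotated one, 8 hold CACGTG (16.3%) and 31 hold GGGCGG (63.3%). Such matches describe the letters and are not binding sites. The listed starts for HDAC7 and DNMT3B lie 13229 and 17467 bases downstream of the annotated gene starts, so their sequences are not shown. Those windows hold 33 CG for HDAC7 and 3 for DNMT3B, with 0 CACGTG and 0 GGGCGG in each. Since the HDAC7 and DNMT3B starts are internal, these counts cannot show whether the called genes share a high CG count at annotated starts. Internal starts were kept in the median and counts over the 49 members, among them DNMT1 at 36333 and HDAC2 at 40160 bases downstream.

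The other demethylases divided by direction. KDM1A, the LSD1 enzyme that acts on H3K4, had 6.70 and 6.74 FPKM with drug, against 7.40 and 7.19 FPKM in control (limma adjusted p 0.141), and edgeR and DESeq2 called it lower. KDM5B, an H3K4 demethylase, had 3.19 and 3.23 FPKM with drug, against 3.46 and 3.45 FPKM in control, and KDM7A, which acts on H3K9 and H3K27, had 1.54 and 1.41 FPKM with drug, against 1.82 and 1.74 FPKM in control; edgeR called both lower. KDM6B, an H3K27 demethylase, had 4.05 and 4.24 FPKM with drug, against 4.33 and 4.29 FPKM in control, so that drug lay below control for these 4 genes. KDM4A and KDM4C act on H3K9 and H3K36; KDM4A had 3.34 and 3.44 FPKM with drug, against 3.22 and 3.30 FPKM in control, and KDM4C had 2.65 and 2.83 FPKM with drug, against 2.46 and 2.37 FPKM in control. KDM5A, a paralog of KDM5B, had 6.88 and 6.70 FPKM with drug, against 6.47 and 6.45 FPKM in control. Drug lay above control for these 3. Over all genes tested, drug lay above control in 40.3% and below in 23.3%. KDM2B, the CXXC paralog of KDM2A and a subunit of a polycomb complex, had 3.05 and 3.09 FPKM with drug, against 3.07 and 3.06 FPKM in control and overlapped. KDM2A made up 45.5% and 46.4% of the summed demethylase FPKM with drug, against 42.1% and 42.5% in control.

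Among zinc-dependent deacetylases, HDAC7 was higher with drug and the other 5 tested did not pass. HDAC7 (ENSG00000061273), a class IIa protein that binds MEF2 factors and shuttles between nucleus and cytoplasm, lies on chr12:47782722-47833132 on the minus strand in hg38. It had 2.33 and 2.46 FPKM with drug, against 1.62 and 1.55 FPKM in control, so both drug libraries lay above both controls at a low level. Recovered reads were 930 and 945 with drug, against 460 and 595 in control. The log2 fold change was 0.39 on the log2(FPKM + 1) scale (SE 0.07), with a limma adjusted p of 0.0280; mean FPKM stood at a ratio of 1.51, and edgeR's log2 fold change, which has no such pseudocount, was 0.55. Left out in turn, drug 1, drug 2, control 1 and control 2 gave adjusted p values of 0.0926, 0.129, 0.0969 and 0.103, with log2 fold changes from 0.36 to 0.42. The gene overlaps SLC48A1 and LINC02354 on the opposite strand, so reads of these could be counted with it if strand was not used. HDAC1 made up 59.7% and 59.6% of the summed deacetylase FPKM with drug, against 58.6% and 58.5% in control. HDAC2, its paralog, had 16.2 and 16.1 FPKM with drug, against 15.8 and 15.9 FPKM in control, with drug above control for both, though the HDAC2 log2 difference of 0.03 turned to -0.01 with TMM scaling. HDAC3, the enzyme of the NCoR and SMRT corepressors, had 14.0 and 13.7 FPKM with drug, against 14.2 and 15.0 FPKM in control, and HDAC6, a mainly cytoplasmic tubulin deacetylase, had 4.39 and 4.41 FPKM with drug, against 4.45 and 4.74 FPKM in control, both below control. HDAC5, of class IIa, had 2.22 and 2.32 FPKM with drug, against 1.86 and 2.24 FPKM in control and overlapped.

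The sirtuins showed SIRT1 higher with drug, with SIRT3 and SIRT6 not called. SIRT1 (ENSG00000096717) deacetylates histones and factors such as p53 and PGC-1α and links chromatin to the NAD supply. It lies on chr10:67884669-67918390 on the plus strand in hg38 and had 8.09 and 7.67 FPKM with drug, against 6.31 and 6.18 FPKM in control. Both drug libraries lay above both controls, from 1487 and 1355 recovered reads with drug and 821 and 1089 in control. The log2 fold change was 0.29 (SE 0.04), with a limma adjusted p of 0.0185. Left out in turn, drug 1, drug 2, control 1 and control 2 gave adjusted p values of 0.0779, 0.0571, 0.0843 and 0.0918, with log2 fold changes from 0.26 to 0.33. SIRT3, the mitochondrial deacetylase, had 2.79 and 3.20 FPKM with drug, against 2.88 and 2.91 FPKM in control, and SIRT6, a nuclear enzyme of H3K9 acetylation, had 4.29 and 4.61 FPKM with drug, against 4.40 and 4.20 FPKM in control; both overlapped. SIRT1 made up 53.3% and 49.6% of the summed FPKM of the 3 sirtuins with drug, against 46.4% and 46.5% in control.

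**Figure D4:**
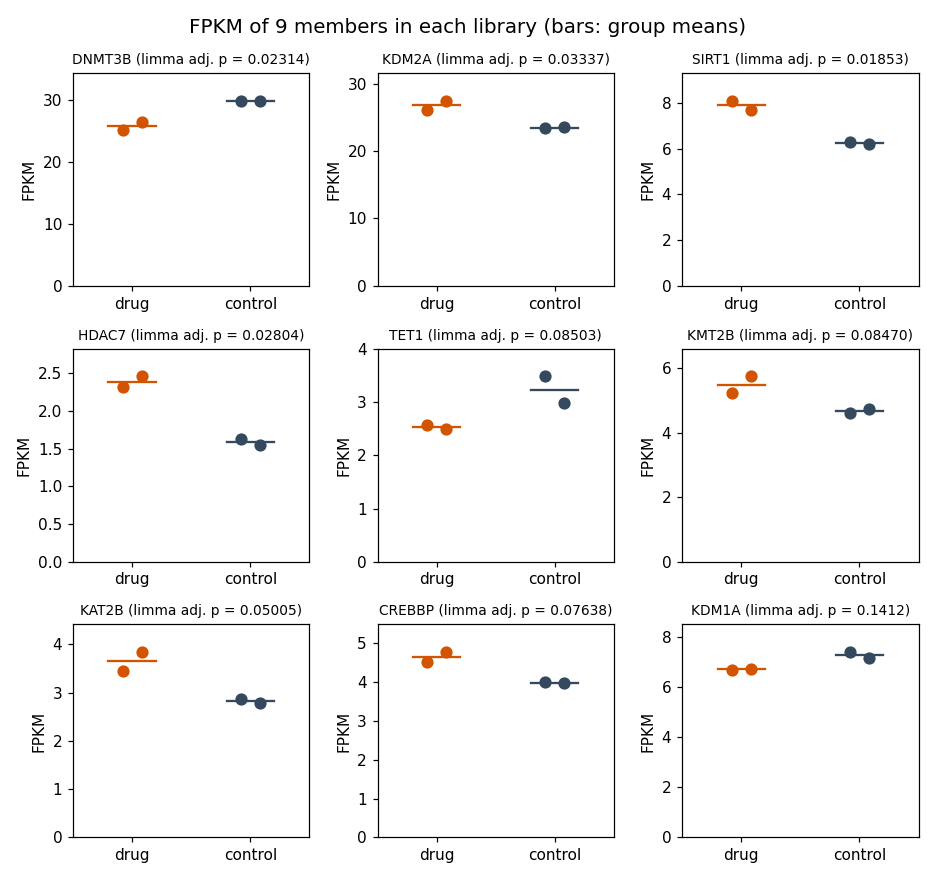
FPKM (vertical axes, from 0) in each drug library (orange) and control library (dark blue), with group means as bars. The limma adjusted p stands above each panel. Shown are the 4 members called by limma and the 5 others with an adjusted p under 0.05 in the authors' deposited table. All 9 were thus picked by a call, and in each both drug libraries lie on one side of both controls. Over all genes tested, 63.5% had groups that did not overlap. HDAC7 has the widest gap relative to its level, at 2.33 and 2.46 FPKM with drug and 1.62 and 1.55 FPKM in control.

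The authors' deposited table gives an adjusted p and a category for each gene. Among the 51 members tested, its adjusted p is under 0.05 for 9 (17.6%), against 16.3% of the same 11227 genes (7.26% higher, 9.06% lower). DESeq2 on recovered reads gave the same counts, 6 members higher and 3 lower. Those reads were rebuilt from the deposited values, so this repeats the deposited comparison and adds no separate support. DNMT3B, for 1, had a log2 fold change of -0.2456 and an adjusted p of 2.4e-09 in both. In the authors' deposited table the 6 higher ones are KMT2B, CREBBP, KAT2B, KDM2A, HDAC7 and SIRT1, and the 3 lower ones are DNMT3B, KDM1A and TET1. The authors' deposited table marks none of the 53 members as up or down in its own category column, where each is listed as stable. That column of the authors' deposited table marks 0.766% of the 11227 genes as up or down, so 0 members is near the background. By edgeR on recovered reads 11 members passed (21.6%), 6 higher and 5 lower, against 19.4% of all genes (8.37% higher, 11.0% lower).

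Partners, other readers and cofactor enzymes were examined in 13 lists of 197 genes that hold no member. Of 175 tested, 16 were higher (9.14%) and 4 were lower (2.29%), against 7.78% and 6.02% of all genes. NCOA3, a steroid receptor coactivator listed with the acetyltransferases, had the largest rise, at 51.7 and 52.4 FPKM with drug, against 35.3 and 34.1 FPKM in control (log2 fold change 0.57, SE 0.03, limma adjusted p 0.00152). IDH1, the cytosolic enzyme that makes 2-oxoglutarate, fell to 101 and 98.7 FPKM with drug, against 137 and 136 FPKM in control (log2 fold change -0.44, SE 0.03, limma adjusted p 0.00187). Of the 20 calls, these 2 held with each library left out in turn.

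Among further modifying enzymes, KMT5B, an H4K20 methyltransferase, averaged 10.4 FPKM with drug and 8.32 FPKM in control, and SMYD5, of the SMYD methyltransferases, averaged 18.5 FPKM with drug and 16.3 FPKM in control; these were 2 of 18 tested in that list. KDM1B, the paralog of LSD1, averaged 11.2 FPKM with drug and 9.66 FPKM in control. RIOX2, a Jumonji enzyme, averaged 8.27 FPKM with drug and 7.12 FPKM in control. These were the 2 higher of 11 tested in the list of other lysine demethylases, and DESeq2 called neither. HDAC11, the class IV deacetylase, fell to 6.45 FPKM with drug, against 8.71 FPKM in control, and was the 1 called of 4 deacetylases. Over all genes tested, 7.78% were higher and 6.02% lower. With TMM scaling, SMYD5, KDM1B and RIOX2 lost the call.

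In complexes around the members, PHF19, a polycomb partner that binds H3K36 methylation, averaged 7.25 FPKM with drug and 5.21 FPKM in control (1 of 13 called). HCFC1, a subunit of SET1 and MLL complexes, averaged 19.9 FPKM with drug and 16.8 FPKM in control (1 of 11). RCOR3, a CoREST protein, averaged 6.04 FPKM with drug and 5.07 FPKM in control (1 of 17 deacetylase complex subunits). BRPF3, a scaffold of MYST acetyltransferases, averaged 10.7 FPKM with drug and 8.39 FPKM in control, and EPC2, of the enhancer of polycomb proteins, averaged 7.06 FPKM with drug and 5.96 FPKM in control (2 of 23). Each of these was higher, where 7.78% of all genes tested were higher and 6.02% lower. With TMM scaling, HCFC1, RCOR3 and EPC2 lost the call. The DNA methylation partners had 0 of 4 called by limma and 0 by edgeR and DESeq2. At an unadjusted p under 0.05 there was 1, against 33.1% of all genes.

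Of the readers in 3 lists, 5 were called by limma, all higher, where 7.78% of all genes were higher and 6.02% lower. With TMM scaling, PBRM1 and CBX3 of these 5 lost the call. By edgeR 1 reader of acetylated histones and 1 of methylated DNA were lower, and DESeq2 called 1 of acetylated histones lower. BRD8, a bromodomain subunit of TIP60, averaged 10.3 FPKM with drug and 8.64 FPKM in control, and PBRM1, of the PBAF remodeller, averaged 10.6 FPKM with drug and 9.17 FPKM in control (2 of 20 readers of acetylated histones). CBX3, a heterochromatin protein, averaged 84.0 FPKM with drug and 76.1 FPKM in control, and ZMYND11, a reader of H3.3 K36 methylation, averaged 7.08 FPKM with drug and 5.63 FPKM in control (2 of 24 readers of methylated histones). ZBTB38, a methyl-CpG binding zinc finger protein, averaged 7.01 FPKM with drug and 5.47 FPKM in control (1 of 8 readers of methylated DNA).

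Among 15 cofactor enzymes tested, 1 was higher and 3 were lower by limma, against 7.78% and 6.02% of all genes. By edgeR 0 were higher and 6 lower, against 8.37% and 11.0% of all genes. DESeq2 called 1 higher and 6 lower, against 7.26% and 9.06%. MAT2A, which makes S-adenosylmethionine, averaged 121.5 FPKM with drug and 111.5 FPKM in control. ACSS2, which makes acetyl-CoA from acetate, fell to 6.29 FPKM with drug, against 7.68 FPKM in control. NNMT, which spends S-adenosylmethionine on nicotinamide, fell to 2.08 FPKM with drug, against 3.67 FPKM in control. With TMM scaling, 11 of the 20 calls in these lists held; the 9 lost were SMYD5, KDM1B, RIOX2, HCFC1, RCOR3, EPC2, PBRM1, CBX3 and MAT2A.

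**Figure D5:**
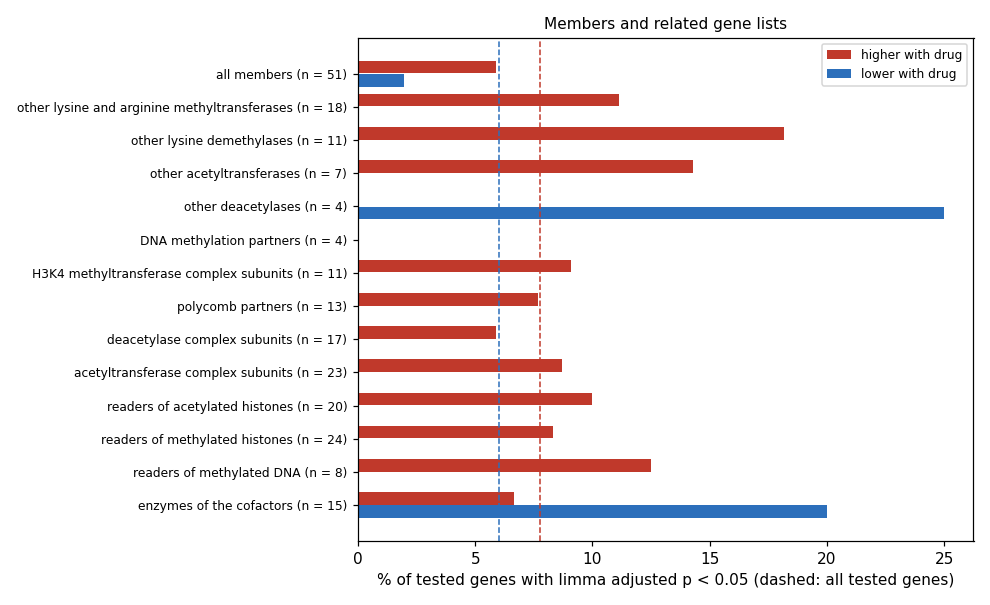
Percent of tested genes with a limma adjusted p under 0.05 (horizontal axis) for the 51 members and for 13 related lists down the page, with genes higher with drug in red above genes lower with drug in blue. Dashed lines mark 7.78% higher and 6.02% lower over all genes; the lists hold 4 to 24 tested genes each, and the 4 deacetylases show 1 lower.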

How the data were processed

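Total RNA of PLC8024 cells was extracted with trizol and sequenced after stranded mRNA library preparation, per the labels' protocols. The submitters' processing notes name bcl2fastq and hg38, with no versions. For the aligner, the counter and the authors' test, the tool is not given in the sources used here. Values of single libraries were read as FPKM made by the authors, from the values, since the deposited header names no unit. The group columns hold a deposited signal, the mean of read counts that the authors scaled with one size factor for each library. The log2 fold changes, p-values and adjusted p-values are the authors' deposited comparison. The table holds 0 genes at 0 in both controls and 2073 at 0 in both drug libraries. A gene read only with drug is thus absent and could not be counted as higher. Shares and counts over all genes cover only genes with reads in control.

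Reads of each library were recovered as whole numbers from FPKM, group means and GENCODE 29 lengths, and 100% of them came out whole to within 0.1 read. Genes averaging 1 FPKM or more in either group entered limma 3.58.1 with a trended prior, fitted on log2(FPKM + 1), which understates changes of low genes, with Benjamini-Hochberg adjustment over all 11227 genes and a threshold of 0.05. Alternatives were pseudocounts of 0.1 and 0.01, no filter, TMM scaling, edgeR 4.0.16 and DESeq2 1.42.0 on recovered reads, the replicate number as a block, and leaving out each library in turn. Scripts were tested on simulated data. All 54 members are accounted for: each one called, and each whose groups did not overlap, has its value in every library. From each related list up to 2 called genes per direction were named, or all where 5 or fewer passed. Members and lists were chosen with earlier results of these data known. Of the related genes 192 of 197 were in the table. Fits ran in R 4.3.3, and tables and figures in Python 3.11.15 with pandas 2.3.3, numpy 2.4.6 and matplotlib 3.10.9.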

Additional observations from a re-analysis of the deposited data

How the results depend on the processing

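Pseudocounts of 0.1 and 0.01 kept the 4 members called and added KAT2B. With no filter, 170 of all genes were higher and 214 lower, 0 members were called in either direction, and 4 related genes were higher and 1 lower. TMM scaling gave 544 genes higher and 7 related genes higher. By edgeR 1233 genes were lower, 6 members were higher and 5 lower, and 15 related genes were lower. DESeq2 was run on all 26603 genes, and there 1073 genes were lower, 6 members were higher and 3 lower, and 11 related genes were lower. Among the 11227 genes tested by limma and edgeR, DESeq2 called 1017 genes lower, with 10 related genes lower. With the replicate block 474 genes, 1 member and 6 related genes were higher. KDM2A and HDAC7 had limma adjusted p values of 0.0542 and 0.0635 with that block. Same-numbered libraries shared deviations at a correlation of 0.0278. From 2 libraries in each group, this value cannot show whether same-numbered libraries were prepared together, and the labels do not say. Leaving out 1 library gave 115 to 221 genes higher and 188 to 274 lower, 0 members in either direction, and 1 to 3 related genes higher and 1 to 2 lower. The cause of these shifts was not tested. Some log2 fold changes near 0, none of them called, reversed. With TMM scaling EZH1 was at -0.0205, SETD2 at -0.0201, CARM1 at -0.036, DNMT1 at -0.013, KDM2B at -0.029 and HDAC2 at -0.013. By edgeR they were at -0.024, -0.022, -0.0397, -0.014, -0.038 and -0.014, and by DESeq2 at -0.015, -0.014, -0.033, -0.00701, -0.031 and -0.0065. With 1 library left out, EZH1 ranged from -0.065 to 0.0925, SETD2 from -0.019 to 0.0517, CARM1 from -0.052 to 0.0549, KDM2B from -0.0048 to 0.0088, SIRT3 from -0.038 to 0.109 and SIRT6 from -0.0028 to 0.0813. HDAC4 and HDAC8 were too low to test, and the lowest library count of any member was 269 reads.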

Other observations

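BRD2, a bromodomain reader of acetylated histones named after its values were seen, stood at 0.13 and 0.198 FPKM with drug, against 2.27 and 0.147 FPKM in control. Recovered reads were 47 and 69 with drug, against 583 and 51 in control, so control library 1 alone was high and the groups overlapped. Its limma adjusted p was 0.354, and the gene passed the filter on low values through that library.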
